A study of Homo sapiens with 8 samples.

Results

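KBM7 cells that carry a gene trap in TNFRSF1A were compared with wild-type KBM7 cells, once with both unstimulated and once with both given TNF-alpha. The comparison took 4 of the 8 arrays of the series. These were unstimulated wild type (WT replicate 2, which the labels name as the control of the TNF-alpha experiment), WT with TNF-alpha, the unstimulated TNFRSF1A mutant and the TNFRSF1A mutant with TNF-alpha. TNF-alpha was given at 10 ng/ml for 6 hours. The other 4 arrays were unstimulated WT replicate 1, WT with IFN-gamma at 100 ng/ml for 6 hours, and a JAK2 mutant unstimulated and with the same IFN-gamma. They took no part in the 2-fold calls and served as outside reference. They did count in the level filter and in picking each gene's brightest probe set. Each condition of the comparison had 1 array. The mutant, called the TNFRSF1A clone here, stands for 1 mutant line, so what the trap does and what the line differs in for any other reason cannot be told apart. The labels do not say that the arrays of a pair came from separate cultures, so p-values do not measure a spread between cultures. Those of the main fit rest on how far the unstimulated and the TNF-alpha pair disagree, and on a prior drawn from all genes tested.

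KBM7 is a chronic myeloid leukaemia line with a near-haploid karyotype, in which a gene trap that lands in a single gene copy can disable it. TNFRSF1A encodes TNFR1, the receptor through which TNF-alpha recruits TRADD and RIPK1 and activates NF-kappaB. NF-kappaB then induces chemokines, adhesion molecules and its own inhibitors. The genes described here are those that differed both without and with TNF-alpha.

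Among 11127 autosomal genes with a log2 intensity of at least 6 on any of the 8 arrays, 54 were lower in the clone (0.485%) and 22 were higher (0.198%), each by at least 2-fold in both the unstimulated and the TNF-alpha pair. A log2 value of 6 is near the upper quartile of each array's background probe sets, and lower values are called the background range. Values and differences are on the log2 scale, differences are clone minus wild type, and paired numbers are given unstimulated first and with TNF-alpha second. Where clone values lay in the background range, only a lower bound of the fall is known, found by setting values under 6 to 6. By the bound, the mean differences were -3.15 for GJA1, -2.94 for ATP12A, -2.74 for TNFRSF1A, -2.63 for LSAMP and -2.55 for CD70. PNMA8A, at -2.16, FABP3, at -2.09, EMC10, at -1.96, and DNAH14, at -1.54, differed by more as measured, but their clone values were in that range and cannot be ranked. The largest rises were in COL2A1, MGMT and IRS1. The median difference was -1.83 over the 54 lower genes and 1.20 over the 22 higher genes, on the log2 scale, and these medians only describe the threshold that chose the genes. For every one of the 76 genes both clone values lay on the same side of both wild-type values, with a gap of at least 0.65.

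Over all genes tested, the median difference was 0.04 in the unstimulated pair and 0.01 in the TNF-alpha pair. The spread of the differences over genes was an SD of 0.29 in the unstimulated pair and 0.30 in the TNF-alpha pair. The difference between the pairs had an SD of 0.23. Adding TNF-alpha to the clone moved genes by an SD of only 0.12, whereas the unstimulated wild-type arrays, replicates 1 and 2, differed by an SD of 0.38. That last spread is wider than the one between clone and wild type, and 222 genes (2%) differed at least 2-fold between these wild-type arrays. Across genes, which are not independent replicates, the pairs correlated with a Pearson r of 0.71.

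**Figure D1:**
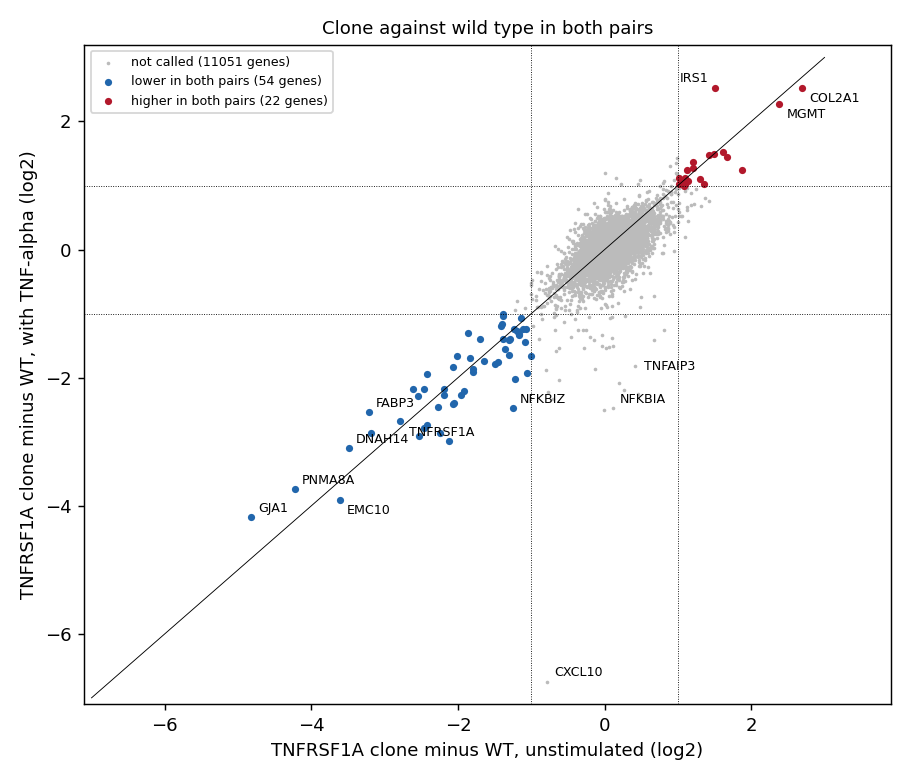
Log2 difference between the TNFRSF1A clone and wild type for each of 11127 genes, unstimulated on the x axis and with TNF-alpha on the y axis; dotted lines mark 2-fold and the diagonal marks equal differences. The 54 lower and 22 higher genes lie along the diagonal, while NF-kappaB targets such as CXCL10, NFKBIA and TNFAIP3 lie below it, short of 2-fold on the x axis.

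The trapped gene was read first. The brightest of the 4 TNFRSF1A probe sets had log2 values of 9.36 in WT and 9.23 in WT with TNF-alpha, against 6.56 and 6.55 in the clone. On the arrays outside the comparison the values were 9.68 for WT replicate 1, 9.72 after IFN-gamma, and 9.77 and 9.83 for the JAK2 mutant. The clone's arrays were thus lowest of the 8. The mean difference was -2.74 with a standard error of 0.07 (adjusted p = 0.00403, limma fit with terms for genotype and TNF-alpha, Benjamini-Hochberg). A second TNFRSF1A probe set was lower, at -1.38 and -1.43 in the pairs. The third was lower, at -1.32 and -0.49, and the fourth, at 6.37 in WT against 5.99 in the clone, at -0.38 and -0.28. Where these probe sets lie relative to the insertion was not analysed here, and nothing here shows whether what remains is an intact message.

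Promoters of genes at both ends of the range are shown because they differ widely in CpG content. Calling the genes did not use this feature, but picking which promoters to show did. CpG-rich stretches mark the promoters of many widely expressed genes, and tissue-restricted genes more often have promoters poor in CpG. Each sequence is the 250 bases upstream of the RefSeq start in build GRCh38.p14, 5′ to 3′ on the gene's strand, with every CG dinucleotide in capitals. GJA1, with the largest fall by the bound, lies at chr6:121435396-121435645 on the plus strand and has 1 CG. PNMA8A lies at chr19:46471564-46471813 on the minus strand and has 25. FABP3 lies at chr1:31373077-31373326 on the minus strand and has 13. MGMT, among the largest rises, lies at chr10:129466991-129467240 on the plus strand and has 36.
GJA1: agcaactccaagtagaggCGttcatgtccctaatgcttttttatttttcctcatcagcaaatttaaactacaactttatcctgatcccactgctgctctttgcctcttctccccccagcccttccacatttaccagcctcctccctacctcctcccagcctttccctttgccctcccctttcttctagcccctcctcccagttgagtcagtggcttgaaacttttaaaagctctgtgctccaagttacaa
PNMA8A: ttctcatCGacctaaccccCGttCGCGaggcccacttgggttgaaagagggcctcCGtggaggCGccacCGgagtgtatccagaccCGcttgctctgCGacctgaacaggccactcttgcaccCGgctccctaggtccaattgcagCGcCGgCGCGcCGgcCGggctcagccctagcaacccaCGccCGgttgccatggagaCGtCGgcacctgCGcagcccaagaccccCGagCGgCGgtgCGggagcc
FABP3: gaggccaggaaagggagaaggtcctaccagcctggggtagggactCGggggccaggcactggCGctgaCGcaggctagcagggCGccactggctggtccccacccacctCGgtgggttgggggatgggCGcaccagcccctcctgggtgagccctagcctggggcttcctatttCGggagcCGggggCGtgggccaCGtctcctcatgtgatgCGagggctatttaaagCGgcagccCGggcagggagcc
MGMT: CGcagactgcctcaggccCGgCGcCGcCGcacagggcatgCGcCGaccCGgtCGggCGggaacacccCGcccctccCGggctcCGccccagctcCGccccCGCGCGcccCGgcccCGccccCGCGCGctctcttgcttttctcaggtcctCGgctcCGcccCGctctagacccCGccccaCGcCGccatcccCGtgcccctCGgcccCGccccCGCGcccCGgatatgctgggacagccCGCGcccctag
The ratio of observed to expected CG, which corrects for base composition, was 0.09 for GJA1, 0.86 for PNMA8A, 0.44 for FABP3 and 1.00 for MGMT. Because these promoters were picked to differ in CpG content, the spread of their ratios says nothing about the called genes as a set.

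Promoters were found in the RefSeq table for 40 of the 54 lower genes, 18 of the 22 higher genes and 9113 of the 11127 genes tested. The median ratio of observed to expected CG was 0.68 for the lower, 0.72 for the higher and 0.82 for all genes tested. A ratio under 0.4 was found in 10 of 40 lower genes (25%), 6 of 18 higher genes (33.3%) and 1117 of the 9113 (12.3%). The letters TATAAA, searched on both strands, occurred in 12.5% of the lower genes' promoters, 5.56% of the higher genes' and 5.7% of all. The letters GGGCGG, searched the same way, occurred in 60%, 55.6% and 67.4%. These shares are descriptions with no test.

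The called genes are described by role. The roles were assigned to called genes only, after they were seen, so counts by role say nothing of a class of genes as a whole. Gene lists are given beside them. Of all genes tested 0.683% were called in either direction, and at that share short lists hold few calls or none. Few or no calls in a list are therefore not a result about that list. Cell contact and axon guidance had 6 called genes lower and 1 higher. GJA1 encodes connexin 43, the most widely expressed gap junction protein, which couples the cytoplasm of neighbouring cells. Its log2 values were 9.23 in WT and 9.08 in WT with TNF-alpha, against 4.40 and 4.89 in the clone. Both clone values were in the background range. With values under 6 set to 6 the differences were -3.23 unstimulated and -3.08 with TNF-alpha, and the fall was at least that large. The JAK2 mutant lay between, at 6.87 and 6.95, and both outside wild-type arrays were high, at 8.93 and 8.99. The other 3 GJA1 probe sets stayed under 6 on all 4 arrays, so the fall rests on 1 probe set. Of the 7 connexin and pannexin genes tested out of a list of 20, GJA1 alone was lower by 2-fold in both pairs and none was higher. GJA3 was higher by 0.47 and 0.59 (limma, adjusted p = 0.0457), and the list's medians were 0.06 and 0.05.

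ROBO1, a receptor for the guidance cue SLIT, had log2 values of 7.62 and 7.52 in wild type against 5.07 and 5.24 in the clone. LSAMP, a GPI-anchored adhesion protein, had 8.75 and 8.80 against 6.27 and 6.01. WT replicate 1 read 7.25 for LSAMP, a difference of -1.49 from replicate 2, and against replicate 1 the clone differed by -0.98. SEMA3A, a repellent guidance cue, was lower, at -1.38 and -1.03 (-1.09 and -0.93 by the bound). The neighbouring gene SEMA3D of the same family was higher by 1.67 and 1.45. CD9, a tetraspanin of the cell surface, was lower, at -1.64 and -1.74, and all 6 of its probe sets above the background range were lower by at least 2-fold in both pairs. ITGAM, the integrin alpha chain CD11b of myeloid cells, was lower, at -1.42 and -1.20, with clone values of 4.96 and 5.01 in the background range. Of the 18 integrin and adhesion genes tested, CD9 was called lower and 0 were called higher. ITGA9 was higher by 0.82 and 0.83 (limma, adjusted p = 0.0165) and ITGA6 by 0.66 and 0.75 (limma, adjusted p = 0.0256), both short of 2-fold.

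**Figure D2:**
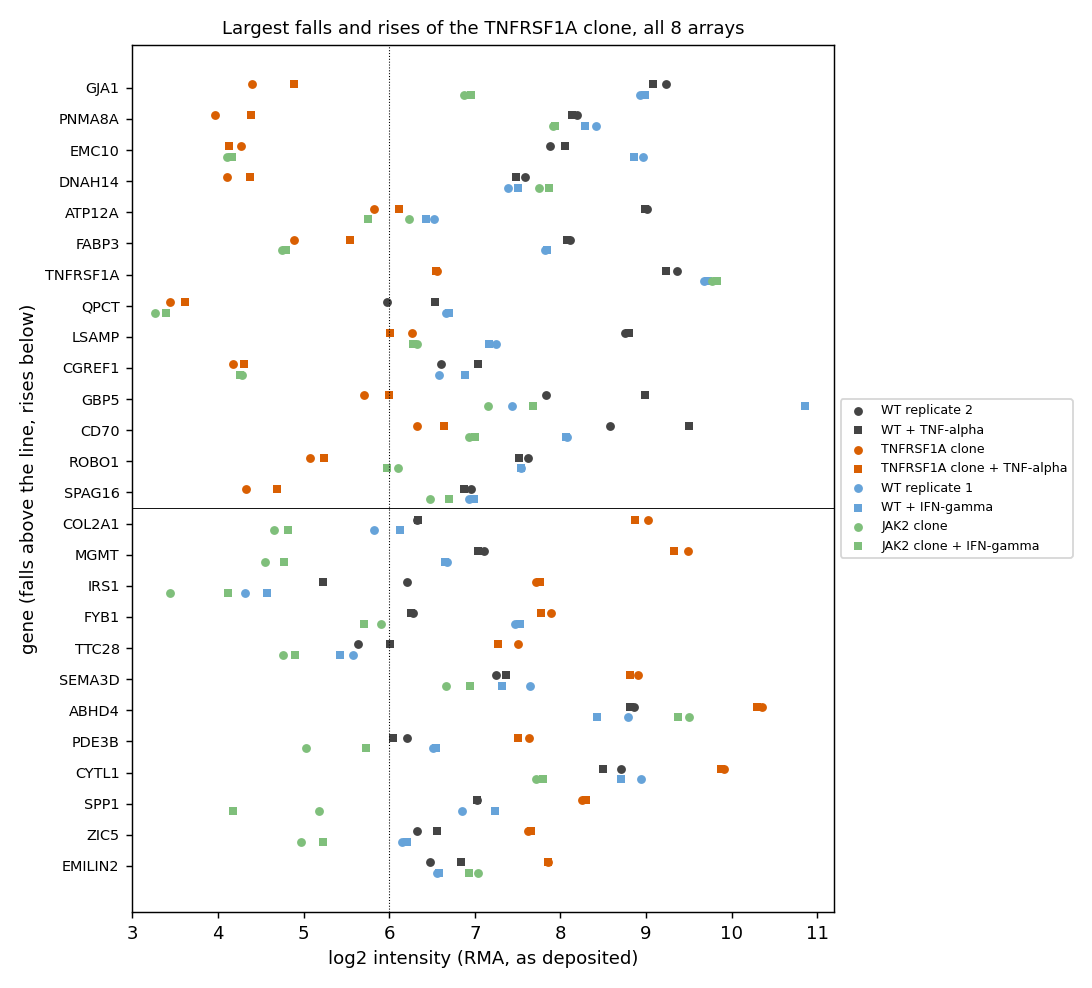
Log2 intensity on all 8 arrays for the 14 genes with the largest falls as measured (above the line) and the 12 with the largest rises (below it); the dotted line marks a log2 value of 6. Both clone arrays (orange) lie apart from the wild-type arrays of the same experiment (dark grey) for every gene, as the choice of genes largely fixes. The outside wild-type arrays (blue) and the JAK2 mutant (green) lie near either side depending on the gene.

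Called genes with a role as immune receptors, ligands or in their signalling were 19 lower and 2 higher. CD70, the ligand of the T cell receptor CD27 and a TNF family member, had log2 values of 8.58 and 9.50 in wild type against 6.33 and 6.64 in the clone. CD48, a ligand of natural killer receptors, had 8.65 and 8.67 against 6.46 and 6.40. Both wild-type values exceeded both clone values in each gene, which the rule that chose them largely fixes. CD48 changed little with TNF-alpha. TNFRSF25, the death receptor DR3, was lower, at -2.01 and -1.66, but its second probe set read 6.04 and 6.00 in wild type and 6.17 and 6.09 in the clone. It was the only called gene with several probe sets above the background range in which they did not all have the same sign, out of 28 such genes.

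The cytokine receptor genes called were IL17RB, IL2RA and IL2RB. IL17RB, a receptor for IL-25, had log2 values of 10.08 and 10.33 in wild type and 8.16 and 8.12 in the clone. IL2RA, the alpha chain of the IL-2 receptor, had 10.17 and 10.96 against 9.11 and 9.04. IL2RB, its beta chain, was lower, at -1.29 and -1.40, and at -0.72 against WT replicate 1. Its clone values were in the background range, and by the bound it differed by -0.97 and -1.11. The Fc receptor FCGR2B, which inhibits, was lower, at -2.07 and -2.41, whereas FCGR1A, the high-affinity receptor for IgG, was higher by 1.08 and 1.00. The FCGR1A rise was 0.09 against WT replicate 1, which read 8.10. WT replicate 1 lay near the clone for IL17RB, at 8.63, for FCGR2B, at 6.33, and below it for IL2RA, at 8.27. For these genes WT replicate 2 and WT with TNF-alpha were the highest of the 8 arrays.

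GBP5 and GBP2 encode interferon-induced GTPases. GBP5 read 7.83 and 8.99 in wild type against 5.70 and 6.00 in the clone. GBP2 read 7.76 and 8.29 against 6.76 and 6.63, but WT replicate 1 read 5.68, so the clone was 1.08 above it. SOCS1, an inhibitor of cytokine receptor signalling, read 9.36 and 8.93 against 7.67 and 7.53, with WT replicate 1 at 7.84. For GBP2 and IL2RA the direction of the unstimulated difference thus turned with the wild-type array used, as it did for HOPX, by 0.04. Among the 19 antiviral interferon genes tested, 0 were called in either direction, against 0.683% of all genes tested. The medians were -0.12 and -0.07. RSAD2, lower, at -0.53 and -0.49, and IFIT1, lower, at -0.56 and -0.44, passed the limma fit with adjusted p of 0.042 and 0.0483.

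PAG1, an adaptor that restrains SRC-family kinases, was lower, at -1.49 and -1.79. Secreted factors called lower included INHBA, the activin beta A subunit, at -1.22 and -2.02 (-0.99 against WT replicate 1), and LIF, an IL-6 family cytokine, at -1.20 and -1.27. RGS1, which dampens G-protein signalling, was lower, at -1.24 in both pairs, and the phosphodiesterase PDE4B at -1.07 and -1.24. Against WT replicate 1 RGS1 stood at -0.57 and PDE4B at -0.78. CD3D, a chain of the T cell receptor complex, was lower, at -1.17 and -1.32 (-0.60 against WT replicate 1), and TRDC, the delta receptor's constant region, at -1.84 and -1.69. FYB1, an adaptor of the T cell receptor, was higher by 1.61 and 1.52, with WT replicate 1 at 7.47 close to the clone's 7.89 and 7.77. CD3E, CD3G, CD2, CD5 and LCK stayed under 6 on all 4 arrays, and 7 of the 14 T and NK cell markers measured did so. The summed intensity of those markers was 2048 and 2115 in wild type against 1487 and 1502 in the clone, and its part in these results was not tested. CD3D, itself called, had an intensity of 956 in WT replicate 2 and 426 in the unstimulated clone, which makes up most of the sum's fall. The sum thus does not describe the marker set as a whole.

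No other tested member of the TNF receptor pathway list was called, where 0.683% of all genes tested were called. Of 25 genes tested out of a list of 32, TNFRSF1A was lower and 0 were higher, with medians of 0.02 and -0.05. The second TNF receptor TNFRSF1B differed by -0.01 and -0.06, and the adaptor TRADD at -0.17 and -0.16. The list members IKBKB, higher by 0.51 and 0.30, and MLKL, higher by 0.45 and 0.38, did not pass the limma fit, with adjusted p of 0.0811 and 0.0601. NF-kappaB subunits and TNF-alpha targets split by treatment. Over the 27 tested, the median difference was 0.10 unstimulated and -1.42 with TNF-alpha. NFKBIA, the inhibitor of NF-kappaB, differed by 0.11 and -2.48, IER3 by -0.01 and -2.50, and the chemokine CXCL10 at -0.79 and -6.75. NFKBIZ, an inducible member of the inhibitor family, was the only one 2-fold lower in both pairs. It read 8.78 and 10.03 in wild type against 7.53 and 7.55 in the clone, but 7.65 in WT replicate 1, and it missed the limma threshold (adjusted p = 0.0613).

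Lipid and metabolic genes divided into 8 lower and 5 higher. FABP3, a carrier of fatty acids in the cytoplasm, had log2 values of 8.11 and 8.08 in wild type against 4.89 and 5.54 in the clone. With values under 6 set to 6 the differences were -2.11 and -2.08, which the falls reached or exceeded. Its values in the JAK2 mutant were as low, at 4.75 and 4.79. Of 14 fatty acid binding and handling genes tested, FABP3 was lower and 0 were higher, with medians of 0.00 and -0.01. FABP5 differed by -0.60 and -0.27 (limma, adjusted p = 0.0962). ATP12A, a proton and potassium pump, read 9.01 and 8.99 against 5.82 and 6.12, but WT replicate 1 read 6.52, from which the clone differed by -0.69.

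The cholesterol exporters ABCG1 and ABCA1 were both lower. ABCG1 read 7.97 and 8.06 in wild type against 5.90 and 6.21 in the clone. ABCA1 read 5.90 and 5.99 against 4.54 and 4.43, all in the background range, so no size can be given for it. It passed the level filter only through the outside arrays, which read from 7.28 to 9.49. Over the 15 cholesterol genes tested the medians were -0.16 and -0.18, and the synthesis genes HMGCS1, at -0.18 and -0.25, and SQLE, at -0.11 and 0.01, did not pass the limma fit. QPCT, an enzyme that modifies the ends of peptides, read 5.97 and 6.53 against 3.44 and 3.62. With values under 6 set to 6 its difference was -0.53 with TNF-alpha, and unstimulated no size can be given. ELOVL4, which lengthens fatty acids, was lower, at -2.42 and -1.95, PFKM, a phosphofructokinase, at -1.80 and -1.91, and GNPDA1, a glucosamine phosphate deaminase, at -1.79 and -1.86. Clone values of PFKM were in the background range, and by the bound it differed by only -0.80 and -0.75. Higher were the lipase-like ABHD4, by 1.49 in both pairs, and the phosphodiesterase PDE3B, by 1.42 and 1.47. GATM, of creatine synthesis, was higher by 1.13 and 1.24, HNMT, which inactivates histamine, by 1.10 and 1.03, and CYP2R1, a vitamin D hydroxylase, by 1.02 in both. Against WT replicate 1 the rise was 0.71 for GATM, 0.31 for HNMT and 0.82 for CYP2R1.

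Called genes with a role as matrix or other secreted proteins were 4 higher and 1 lower, while the secreted INHBA, LIF and SEMA3A, described above, were lower. COL2A1, the collagen of cartilage, had log2 values of 6.33 and 6.34 in wild type and 9.02 and 8.87 in the clone. That is a mean rise of 2.61. The 4 outside arrays were all low, from 4.65 to 6.13, so both clone arrays were the highest of the 8. Of 25 cartilage and fibrillar matrix genes 9 were tested, and COL2A1 alone was called. COL9A2 differed by -0.01 and 0.30 and ACAN by 0.22 and -0.06, and the list's medians were -0.00 and 0.23. SPP1, the secreted phosphoprotein osteopontin, was higher by 1.21 and 1.27, and 5 of its 6 probe sets were 2-fold higher in both pairs. CYTL1, a small secreted protein, was higher by 1.20 and 1.37 and EMILIN2, an elastic fibre protein, by 1.36 and 1.02. TIMP3, an inhibitor of matrix proteases, was lower, at -1.09 and -1.44, from wild-type values of 6.02 and 6.55, and at -0.76 against WT replicate 1. Its clone values were in the background range, and by the bound it differed by only -0.02 and -0.55.

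MGMT, the enzyme that removes alkyl groups from guanine in DNA, had the next largest rise as measured. Its log2 values were 7.11 and 7.04 in wild type against 9.49 and 9.33 in the clone, a mean difference of 2.33. The outside wild-type arrays read 6.68 and 6.65 and the JAK2 mutant 4.55 and 4.77, so the clone was the highest on both its arrays. MGMT alone was called among the 20 repair genes tested, where 0.683% of all genes tested were called. The list's medians were 0.06 and 0.01. MPG, the glycosylase for alkylated bases, differed by 0.20 and 0.22 and MSH6, of mismatch repair, by -0.08 and -0.04. MGMT and COL2A1 each rest on 1 probe set.

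Transcription factors and cofactors were called 4 in each direction. HOPX, a homeodomain protein without DNA binding, was lower, at -1.14 and -1.07, but stood 0.04 above WT replicate 1. VGLL3, a cofactor of TEAD factors, was lower, at -2.46 and -2.17. Its clone values were in the background range, and by the bound it differed by only -0.80 and -0.49. HOXC8 was lower, at -1.46 and -1.76 and HOXC6 at -1.12 and -1.24, both with clone values in the background range. HOXB6 was higher by 1.05 and 1.04, from wild-type values of 5.80 and 5.91 in that range. HOXB6 was the only gene called among the 8 tested HOXB genes and HOX cofactors, whose medians were 0.14 and 0.19. No HOXA gene of that list was tested. CEBPA, the factor of granulocyte development, read 7.43 and 7.27 in wild type and 8.44 and 8.37 in the clone. WT replicate 1 read 8.26 for CEBPA, and the clone was 0.18 above it. HDAC9, a histone deacetylase, was higher by 1.14 and 1.07 and ZIC5, a zinc finger factor, by 1.30 and 1.10.

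Growth and cell cycle genes called were CCND2, CGREF1, NKD2, IRS1 and PTCH1. CCND2, cyclin D2, read 9.66 and 9.92 in wild type against 8.35 and 8.27 in the clone, with WT replicate 1 at 8.67, from which the clone differed by -0.32. Of the 27 cell cycle genes tested it was the only one called, with medians of -0.13 and -0.09. CCND3, cyclin D3, was higher by 0.67 and 0.57 and passed the limma fit (adjusted p = 0.0345), and MKI67 differed by -0.28 and -0.54. IRS1, the adaptor of insulin and IGF1 receptors, read 6.21 and 5.23 in wild type against 7.72 and 7.76 in the clone, and 4.32 in WT replicate 1. Its wild-type values differ more than those of most called genes, and its standard error of 0.25 was among the largest. CGREF1 was lower, at -2.42 and -2.74 and NKD2, an inhibitor of WNT signalling, at -2.28 and -2.46. The clone values of both genes were in the background range. By the bound, the differences were only -0.60 and -1.04 for CGREF1 and -0.94 and -1.06 for NKD2. PTCH1, the hedgehog receptor, was higher by 1.10 and 1.11, from wild-type values of 5.70 and 5.75 in the background range.

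Among the genes without a shared role, PNMA8A had log2 values of 8.19 and 8.13 in wild type against 3.96 and 4.39 in the clone. With values under 6 set to 6 the differences were -2.19 and -2.13, so the falls were at least that large. All 4 outside arrays were high, from 7.91 to 8.42, so the gene was low only on the clone's arrays. The other 3 tested members of the family, MOAP1, PNMA1 and PNMA2, differed by at most 0.19 in either pair. DNAH14, a dynein heavy chain of cilia, followed the same pattern, with 7.59 and 7.48 against 4.10 and 4.38 and outside values from 7.39 to 7.87. SPAG16, a ciliary protein too, read 6.96 and 6.87 against 4.33 and 4.69, and by the bound it differed by only -0.96 and -0.87. EMC10, a subunit of the membrane protein insertion complex of the endoplasmic reticulum, read 7.88 and 8.05 against 4.27 and 4.13, and the JAK2 mutant was as low, at 4.10 and 4.17. IGF2BP1, an RNA-binding protein of fetal tissues, was lower, at -2.06 and -2.40. TTC28 was higher by 1.87 and 1.25. The imprinted gene PEG10 was lower, at -1.17 and -1.33 and at -0.72 against WT replicate 1, while DLK1, of another imprinted locus, was higher by 0.70 and 0.81 (limma, adjusted p = 0.0242).

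The labelled cell type was read through its markers. All 6 KBM7 markers tested, PTPRC, ANPEP, KIT, MYB, BCR and ABL1, were above the background range on all 4 arrays and 0 were called, with medians of 0.13 and 0.07. Among 12 stem and progenitor markers 0 were called, though FLT3 lay just outside the threshold, at 0.99 and 1.18 (limma, adjusted p = 0.0148), and SPINK2 at a mean of -0.93 (limma, adjusted p = 0.016). Monocyte and macrophage markers had ITGAM lower and FCGR1A higher among 5 tested, and granulocyte markers had CEBPA higher among 7. Of the 13 monocyte markers measured, 8 were under 6 on all 4 arrays, CD14, CD163 and S100A9 among them. CD68, VCAN and CSF1R were above 6 on all 4 arrays and were not called. CD68 differed by -0.56 and -0.44 (limma, adjusted p = 0.0483). Summed intensities of the 13 monocyte markers ran from 895 to 952 in wild type and from 1011 to 1051 in the clone. FCGR1A, itself called, had an intensity of 138 in WT replicate 2 and 293 in the unstimulated clone. The rise of the sum thus largely repeats that gene. Of 13 fibroblast and endothelial markers, 12 were under 6 throughout. In the 18 MHC genes tested 0 were called, against 0.683% of all genes tested. HLA-DPA1, at 1.01 and 0.96, and HLA-DPB1, at 0.90 and 0.99, were the nearest. Fewer cells with a transcript and less of it per cell cannot be told apart in these bulk samples.

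The additive limma fit, which takes the mean of both pairs and 1 residual degree of freedom, found 158 genes lower (1.42%) and 204 higher (1.83%) at an adjusted p under 0.05, together 3.25% of the genes tested. Of the 54 lower genes 52 passed it and of the 22 higher genes all 22, but these genes were chosen for large and equal differences on the same arrays, so the counts are a description. The exceptions were NFKBIZ and IL2RA, whose adjusted p was 0.0511. Their pairs were unequal, at -1.25 and -2.48 for NFKBIZ and at -1.06 and -1.92 for IL2RA, and the fit counts that as residual. When WT replicate 1 was added to the limma fit, 11 genes were lower and 1, ABHD4, was higher (adjusted p = 0.0413). The 11 were all among the 158. GJA1, PNMA8A, DNAH14, ROBO1, CGREF1, TNFRSF1A, SPAG16 and FABP3 were among them, with adjusted p from 0.0182 to 0.0413. MGMT and COL2A1 both stood at 0.0501 there.

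The choice of unstimulated wild-type array mattered for part of the list. Against WT replicate 1, the unstimulated clone was still 2-fold lower for 36 of the 54 genes and 2-fold higher for 13 of the 22. Replicate 1 lay at least 2-fold from replicate 2 in the direction of the clone for 10 lower genes, which include ATP12A, LSAMP, IL17RB, FCGR2B, IL2RA, GBP2, SOCS1, NFKBIZ and HOPX, and for the higher gene FYB1. Of all called genes, 15 of 76 differed at least 2-fold between the wild-type replicates, against 2% of all genes tested, and replicate 2 is among the arrays that chose the called genes. GJA1, at -0.30, PNMA8A, at 0.23, and MGMT, at -0.43, differed by about the spread of these arrays.

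**Figure D3:**
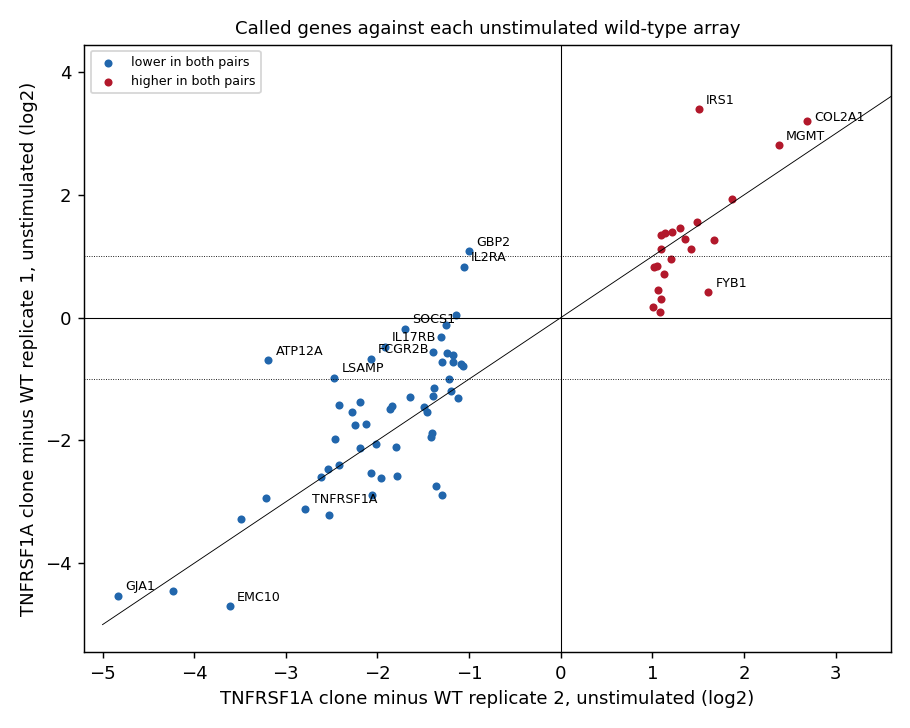
Log2 difference of the unstimulated TNFRSF1A clone for the 76 called genes, against WT replicate 2 on the x axis and against WT replicate 1 on the y axis; the diagonal marks equal differences and dotted lines mark 2-fold. GJA1, EMC10, MGMT and COL2A1 lie far out against both arrays, whereas ATP12A, LSAMP and SOCS1 move to within 2-fold and GBP2 and IL2RA to the other side of 0.

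The arrays of the IFN-gamma experiment, none of which entered the 2-fold differences, showed where each difference lay. Of the 54 lower genes, 18 had all 4 outside arrays nearer to wild type than to the clone, PNMA8A, DNAH14 and TNFRSF1A among them. The interferon-induced GBP5 is counted too, but less clearly. It read 10.86 in WT with IFN-gamma, above its wild-type pair, and 7.15 in the unstimulated JAK2 mutant, close to the midpoint. ABCA1 is counted in the 18, though it passed the level filter only through those outside arrays. Another 20 had the outside wild-type arrays near wild type and the JAK2 mutant near the clone, such as EMC10, FABP3, QPCT and CD9. For 10 genes, ATP12A and IL17RB among them, all outside arrays lay nearer to the clone, and 6 were split. PPP4R4 is counted in the 10, though it passed the level filter only through the wild-type arrays of the TNF-alpha experiment. Of the 22 higher genes, 16 had all outside arrays nearer to wild type, COL2A1, MGMT, IRS1 and ABHD4 among them. PTCH1 and DNM3 are counted in the 16, though they passed the level filter only through the clone's arrays, so their place follows partly from that filter.

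Some genes low in the TNFRSF1A clone were also low in the JAK2 mutant against its own wild-type pair, a comparison that shares no array with this one. The JAK2 mutant had 171 genes lower (1.54%) and 20 higher (0.18%) in both of its pairs. The lists shared 20 lower genes, which are 37% of the 54 and 11.7% of the 171. They include GJA1, EMC10, FABP3, QPCT, CD70, CD48, CD9 and HOPX. Several of them, EMC10, FABP3 and QPCT included, lay in the background range in both mutants, so the sizes of their falls cannot be compared. QPCT read 3.44 and 3.62 in the TNFRSF1A clone and 3.27 and 3.39 in the JAK2 mutant. GJA1 lay in that range only in the TNFRSF1A clone, at 4.40 and 4.89. HOPX lay in that range only in the JAK2 mutant, at 4.85 and 4.41, and read 8.28 and 8.23 in the TNFRSF1A clone. None of the 22 higher genes was among the 20 of the JAK2 mutant. PNMA8A, at -0.51 and -0.35, and DNAH14, at 0.36 in both pairs, were not 2-fold in the JAK2 mutant, and TNFRSF1A differed there by 0.10 and 0.11.

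**Figure D4:**
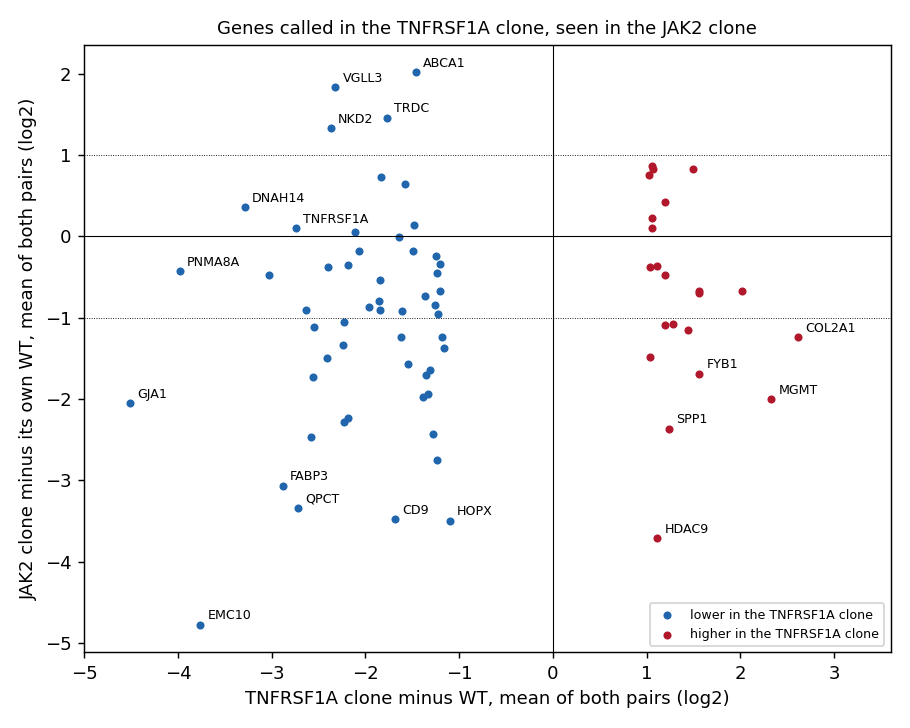
Mean log2 difference from wild type for the 76 genes called in the TNFRSF1A clone, with that clone on the x axis and the JAK2 mutant against its own wild-type arrays on the y axis; dotted lines mark 2-fold. EMC10, FABP3, QPCT and GJA1 are low in both, while COL2A1, MGMT and HDAC9 are high in the TNFRSF1A clone and low in the JAK2 mutant.

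Called genes were scattered over the genome. They lay on 21 of the 22 autosomes, chromosome medians of the mean difference ran from 0.004 to 0.061, and running medians over 15 tested genes in gene order stayed between -0.26 and 0.25. Adjacent called genes were SEMA3A with SEMA3D, in opposite directions, and PDE3B with CYP2R1, both higher. Around TNFRSF1A on chromosome 12, the nearest tested genes PLEKHG6 and LTBR, the lymphotoxin beta receptor, differed by 0.00 and 0.04 and by 0.33 and 0.26. Of the 20 nearest tested genes, 10 on each side, 2 were called, both lower, where 0.683% of all genes tested were called. Whether calls gather around TNFRSF1A was not tested. The genes called were CD9, next but one to TNFRSF1A, and CCND2 at the end of the window. The median of the 20 was -0.03. CD9 was low in the JAK2 mutant too, at 6.67 and 6.50 against 10.16 and 9.97 in its wild-type arrays, where TNFRSF1A was not.

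**Figure D5:**
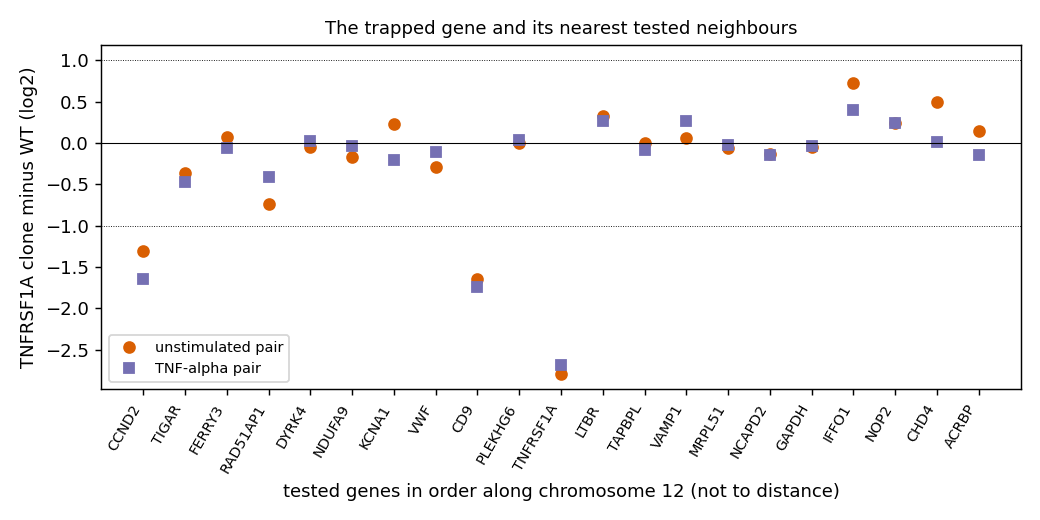
Log2 difference between the TNFRSF1A clone and wild type for TNFRSF1A and the 10 nearest tested genes on each side, in gene order and not to distance; circles are the unstimulated pair and squares the TNF-alpha pair, and dotted lines mark 2-fold. CD9 and CCND2 lie below -1 with TNFRSF1A, and the other neighbours lie between -1 and 1.

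Further genes differed in only one of the pairs. In the unstimulated pair 59 genes were lower by 2-fold, of which 54 (91.5%) were lower in the TNF-alpha pair as well, and 43 were higher, of which 22 (51.2%) were. In the TNF-alpha pair 95 were lower, of which 54 (56.8%) were shared, and 35 higher, of which 22 (62.9%) were. A total of 54 genes were 2-fold different with TNF-alpha only, and 26 of them changed at least 2-fold with TNF-alpha in wild type. The opposite direction in the pairs was found for 0 genes. Among the 76 called genes 2 changed at least 2-fold with TNF-alpha in wild type.

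The threshold of 2-fold runs through a continuum of values. Just inside it lay FCGR1A, at 1.08 and 1.00, PPP4R4, at -1.39 and -1.01 (-0.04 and -0.09 by the bound), CEBPA, at 1.01 and 1.11, and CYP2R1, at 1.02 in both. Just outside lay ADAMTS17, at 0.99 and 1.43, FLT3, at 0.99 and 1.18, APOC1, at -0.98 and -1.19, NYNRIN, at 0.98 and 1.20, and WNT11, at 1.12 and 0.96. Of the lower genes, 31 of 54 had a clone mean in the background range, and 37 were still 2-fold in both pairs with values under 6 set to 6. Of the higher genes 19 of 22 were. Of the 28 called genes with at least 2 probe sets above the background range, 12 had all of these 2-fold in both pairs, and 47 genes had only 1 such probe set. RNA ends were compared through the actin probe sets, whose 3′ minus 5′ log2 signal was 1.71 in WT replicate 2, 2.27 in WT with TNF-alpha and 2.17 and 2.47 in the clone. Its part in these results was not tested.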

How the data were processed

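RNA of KBM7 cells was hybridised to 1-colour Affymetrix PrimeView arrays, 1 per sample. The authors deposited 1 normalized intensity for each probe set and array, which the values show to be linear. The submitters' processing notes name RMA and Affymetrix Expression Console 1.1. Log2 was taken first, though values already on a log2 scale had been assumed in the planned design. RMA makes the arrays' distributions equal, which hides any shift common to most genes. The median intensity ran from 63.9 to 66.9 over the arrays. Precision is limited by how few arrays there are.

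Gene names came from the platform's annotation and were brought up to date by gene identifier with the RefSeq table of GRCh38.p14. Of 49395 probe sets, 44994 had 1 gene, 1832 several, and 2569 were not listed. A gene took the value of its brightest single-gene probe set, which gave 18132 genes, 17406 of them autosomal. Of these, 11127 reached a log2 value of 6 on any of the 8 arrays. A gene was called at a difference of at least 2-fold in the same direction in both pairs, with no p-value. A limma fit (version 3.58.1 in R 4.3.3) with terms for genotype and TNF-alpha on the 4 arrays gave standard errors and Benjamini-Hochberg adjusted p-values at a threshold of 0.05. It has 1 residual degree of freedom, which is the difference between the pairs, so each gene's variance leans on the prior (3.331 prior degrees of freedom). The fit was tested on simulated data, with noise drawn from its own prior and no TNF-alpha effect. That test does not measure how often the fit errs on these arrays. Figures and counts used Python 3.11.15 and pandas 2.3.3.

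The members and the 29 gene lists were chosen with earlier results of these data known. The rule for named genes took TNFRSF1A, COL2A1, MGMT, GJA1 and FABP3, the 14 largest falls and 12 largest rises among called genes, up to 4 members of each list described and any called, and the nearest neighbours of TNFRSF1A. Other called genes and list members were named after their values were seen. The alternatives tried were other fold thresholds, level filters, a loess correction (span 0.3) and a further quantile normalization, the mean of all probe sets, no probe sets marked _x_at, values under 6 set to 6, the other wild-type array as control, and other limma fits.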

Additional observations from a re-analysis of the deposited data

Results flagged for a closer look

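Some genes were at least 2-fold from wild type as measured in both pairs of each mutant, but in opposite directions. The mean log2 differences were -2.37 for NKD2 in the TNFRSF1A clone against 1.33 in the JAK2 mutant, -2.32 against 1.84 for VGLL3, and -1.77 against 1.46 for TRDC. ABCA1 was measured at -1.46 against 2.02, but the first value has no known size. All 4 arrays of the TNF-alpha experiment were in the background range for it. It passed the level filter only through its high values on the other 4 arrays, the JAK2 mutant included, so its place here follows partly from that filter. In the other direction they were 1.11 for HDAC9 against -3.71 in the JAK2 mutant, 1.24 against -2.36 for SPP1, 1.56 against -1.69 for FYB1, and 2.61 against -1.24 for COL2A1. MGMT differed by 2.33 in the TNFRSF1A clone and by -2.13 and -1.88 in the pairs of the JAK2 mutant. The difference between the mutants was not tested for any of these genes, and each mutant was set against its own wild-type arrays. Differences of genes with values in the background range are as measured and not bounds.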

How the results depend on the processing

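Counts of genes lower and higher in both pairs moved with the threshold and the gene's value. They were 114 and 100 at 1.5-fold, 29 and 2 at 3-fold, 34 and 13 with a level filter of 8, and 31 and 14 with the mean of all probe sets. Asking 2-fold of the mean of both pairs gave 35 higher, the unstimulated pair alone 43 higher, and the TNF-alpha pair alone 95 lower and 35 higher. Without WT replicate 2, with replicate 1 as control, they were 38 and 15, of which 36 and 13 were shared with the main lists. The remaining settings kept both counts within 1.5 times. The limma fit depended more on its settings. It called 9 lower and 0 higher in a fit of the 7 conditions on 8 arrays (152 and 172 at an unadjusted p under 0.05), 11 and 1 with WT replicate 1 added, and 91 and 84 with no level filter. It called 255 and 444 after a further quantile normalization, 283 and 429 after loess, 320 lower with the mean of all probe sets, 752 and 846 with a trended and robust prior, and 56 and 33 when 2-fold was asked as well. The cause of these changes was not tested. For 37 named genes, 150 of 185 alternative values moved by less than the spread between the wild-type arrays, 35 moved by more (21 with the mean of all probe sets, 12 with values under 6 set to 6 and 2 with the mean of both wild-type arrays), and 0 changed sign. No paired analysis was possible because the groups compared share fewer than 2 replicate numbers. Leaving out any other of the 4 arrays removes 1 pair and leaves no residual degree of freedom, so each single pair stands for it. Signal over background limits the size of falls in 31 of the 54 lower genes.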
